A study of Homo sapiens with 10 samples.

Results

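The 44 collagen genes of the count table, chosen as the symbols made of COL, a type number, A and a chain number, were followed among 19893 genes in 13800 single cells. The cells came from Kuramochi, an established human ovarian cancer line used as a model of high-grade serous carcinoma, and olaparib, the drug given, is an inhibitor of PARP enzymes. Drug-naive cells were the control, drug-naive cells exposed for 9 days to 10 µM or 320 µM olaparib were the persister conditions, and populations adapted to 10 µM or 320 µM (drug resistant in the labels) were the adapted conditions. How long the adapted populations were held in drug, and whether each was founded more than once, is not given in the sources used here. All 5 conditions derive from the same cell line and share its genotype, BRCA2-mutant in the labels, and each was present in both of 2 pools, so each condition has 2 sums of unique molecular identifiers (UMIs).

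Collagens are trimers, most of them secreted, whose chains are modified and folded in the endoplasmic reticulum. Many are trimmed outside the cell and crosslinked. Fibrillar collagens build the fibers of stroma, fibril-associated collagens (FACITs) coat those fibers, type IV collagen forms the sheet of the basement membrane beneath epithelium, and type VI collagen forms beaded filaments at the border of both. Carcinoma cells cross a basement membrane when they invade, and most fibrillar collagen of a tumor is laid down by fibroblasts.

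The 10 sums held 3532281 to 23189583 UMIs, and the smallest were the 10 µM persister sums, of 300 and 263 cells. Levels are given as CPM, the UMIs of a gene scaled by the total UMIs of its sum after that total was multiplied by a trimmed mean of M-values factor (0.869 to 1.11), for pool 1 and then pool 2. The chemistry reads the 3′ end and counts 1 UMI per captured transcript, so CPM were not divided by gene length. The labels do not state separate cultures for the pools, so the spread behind each p-value is that of 2 pools and could be technical. With 2 sums against 2, an exact permutation test could not go below a two-sided p of 0.33. A floor of 3 UMIs corresponded to 0.127 to 0.774 CPM. The sums cannot tell fewer expressing cells from less RNA per cell, and 13 cell barcodes occurred in both pools.

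Of the 44 genes, 23 passed the filter on low counts and were tested, and 18 reached a mean of 5 CPM in some condition. Summed over the 44 genes, collagen made up 377 ± 4.85 CPM in control cells (mean ± SD, n = 2 pools, as for the sums that follow). That sum was 307 ± 8.90 CPM in 10 µM persister cells, 215 ± 0.516 in 320 µM persister cells, 686 ± 11.6 in 10 µM adapted cells and 331 ± 2.73 in 320 µM adapted cells. The 10 µM adapted sums were the only ones above control, and the 5 conditions did not overlap. The order of 2 conditions depends on the scaling: with library totals alone 10 µM persister cells, at 339 ± 12.8 CPM, stood above 320 µM adapted cells, at 288 ± 2.04 CPM. What made up the total also differed. Type IV collagens were 56.4% ± 0.537 of collagen UMIs in control cells and 22.2% ± 0.752 in 10 µM adapted cells, where fibrillar collagens went from 8.11% ± 0.661 to 31.7% ± 0.223. In 320 µM adapted cells the class of type VI and XXVIII held 28.1% ± 0.220, against 5.12% ± 0.182 in control. In 320 µM persister cells the multiplexins, mostly COL18A1, held 25.4% ± 0.034, against 10.3% ± 0.462 in control.

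**Figure D1:**
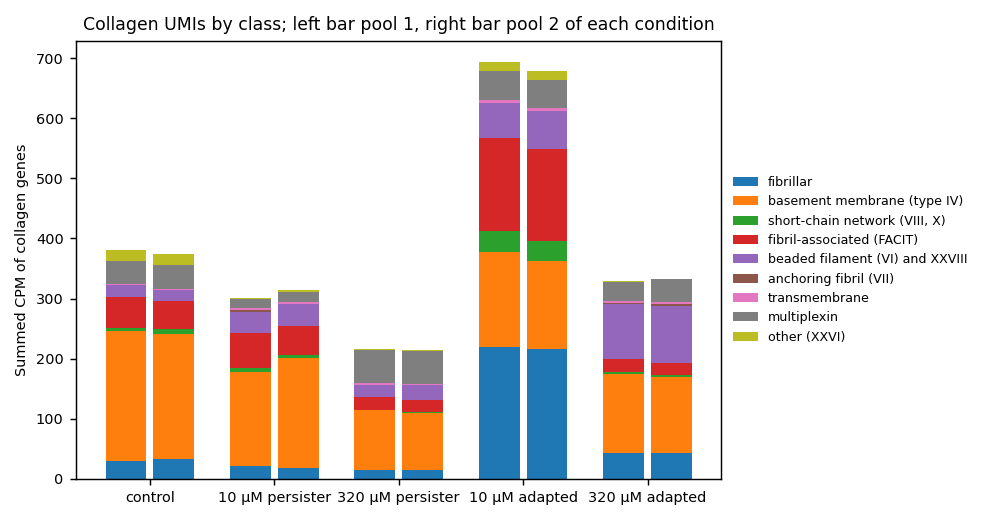
Stacked bars give the summed CPM of collagen genes by class in each condition, with pool 1 on the left and pool 2 on the right of each pair. The 10 µM adapted pair, at a mean of 686 CPM, stands above the control pair at 377 CPM, and its fibrillar and fibril-associated segments are larger.

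Changes were tested with edgeR quasi-likelihood fits, a call being a Benjamini-Hochberg adjusted p under 0.05 over 13330 genes, and changes are log2 ratios of fitted levels with an approximate standard error. Because a gene that is high in 1 condition can pass the filter through that condition, counts over the 23 tested genes describe them and are no test of the family. In 10 µM persister cells 10 of the 23 rose against control (43.5%, against 27.3% of all genes tested) and 8 fell (34.8%, against 29.3%). In 320 µM persister cells 5 rose (21.7%, against 26.3%) and 12 fell (52.2%, against 28.3%). In 10 µM adapted cells 16 rose (69.6%, against 33.7%) and 5 fell (21.7%, against 33.4%). In 320 µM adapted cells 9 rose (39.1%, against 37.6%) and 11 fell (47.8%, against 36.9%). These 4 comparisons share the control sums. The share that rose in 320 µM adapted cells was near that of all genes, and the medians of the 23 log2 changes were 0.63, -0.67, 1.69 and -0.19 in the order given, against -0.026, -0.013, 0.0048 and 0.0091 for all genes.

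Between the treated conditions, 15 of the 23 genes were higher in 10 µM adapted than in 10 µM persister cells (65.2%, against 31.4% of all genes tested) and 4 were lower (17.4%, against 29.3%). At 320 µM 11 were higher in adapted cells (47.8%, against 34.1%) and 4 lower (17.4%, against 32.6%). From 10 µM to 320 µM, 3 were higher in persister cells (13.0%, against 25.3%) and 13 lower (56.5%, against 24.4%), and in adapted cells 5 were higher (21.7%, against 33.4%) and 13 lower (56.5%, against 32.4%). The adapted-minus-persister change differed between the doses for 19 genes, being more positive at 320 µM for 8 (34.8%, against 23.4%) and more negative for 11 (47.8%, against 25.9%). The medians of these 5 comparisons were 1.68, 0.46, -0.76, -0.58 and -1.51, against 0.057, 0.030, 0.029, 0.017 and -0.034 for all genes.

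**Figure D2:**
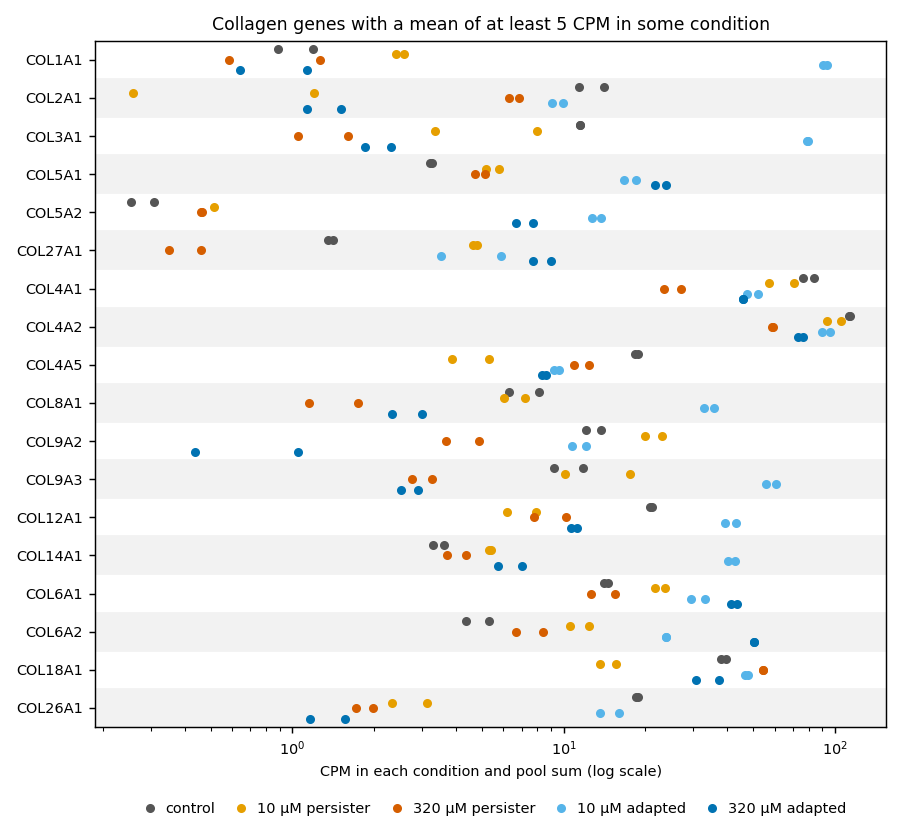
Each point is the CPM of 1 gene in 1 condition and pool on a log scale, for the 18 collagen genes that reached a mean of 5 CPM in some condition. The 10 µM adapted points stand far to the right for COL1A1, COL3A1, COL14A1, COL9A3 and COL8A1, and 1 point at 0 (COL5A2, 10 µM persister, pool 2) is not drawn.

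The fibrillar genes held the steepest change. COL1A1, which encodes a chain of type I collagen (chromosome 17, 50183289 to 50201632, minus strand, positions from GENCODE 29 on GRCh38 throughout), was at 0.884 and 1.19 CPM in control cells. Its level was 2.58 and 2.40 CPM in 10 µM persister, 1.26 and 0.582 in 320 µM persister, 93.6 and 90.8 in 10 µM adapted and 1.13 and 0.639 in 320 µM adapted cells. Both 10 µM adapted sums stood far above the other 8. The log2 change against control was 6.46 ± 0.13 log2 (edgeR adjusted p = 4.66e-26), and against 10 µM persister cells it was 5.21 ± 0.17 log2 (edgeR adjusted p = 3.76e-21). At 320 µM the adapted cells were not called against control, at -0.25 ± 0.32 log2 (edgeR adjusted p = 0.503). The rise in 10 µM persister cells, 1.25 ± 0.38 log2 (edgeR adjusted p = 0.00648), rested on few UMIs (10 and 10): it lost its call without pool 1, at 1.21, and was -0.24 (edgeR adjusted p = 0.789) in a subset of 7762 cells listed in a further deposited table. That table's name carries the tag g1, which is not explained. Its cells held 0.0506 UMIs of the proliferation marker MKI67 each on average, against 2.39 in the other 6038.

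COL1A2, the partner chain of COL1A1 in type I collagen trimers (chromosome 7, 94394561 to 94431232), stayed at the edge of detection. It had 0 and 1 UMIs in the 10 µM adapted sums, where COL1A1 had 1434 and 1409, and 2 UMIs over all 10 sums. The single UMI in 10 µM adapted pool 2 gave a ratio of 1409 COL1A1 UMIs per COL1A2 UMI, with a 95% counting interval from 252 to 55692. COL1A2 was therefore not tested.

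COL3A1, the chain of type III collagen that is laid down beside type I in soft tissue (chromosome 2, 188974320 to 189012746), followed a related pattern from a higher start. It was at 11.5 and 11.5 CPM in control, 7.99 and 3.36 in 10 µM persister, 1.60 and 1.05 in 320 µM persister, 78.8 and 79.9 in 10 µM adapted and 2.32 and 1.86 in 320 µM adapted cells. Those of 10 µM adapted cells were above all others and the other 3 treated conditions below control. COL3A1 rose by 2.79 ± 0.092 log2 (edgeR adjusted p = 4.67e-20) in 10 µM adapted cells. It fell by 3.104 ± 0.23 on the log2 scale in 320 µM persister cells (edgeR adjusted p = 6.01e-12) and by 2.46 ± 0.17 in 320 µM adapted cells (edgeR adjusted p = 2.47e-13). Its lower level in 10 µM persister cells, -1.04 ± 0.21 log2 (edgeR adjusted p = 1.60e-04), was not called without pool 2 of that condition, at -0.53.

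Type V collagen, which nucleates fibrils and sets their diameter, was higher in adapted cells at both doses. COL5A1 (chromosome 9, 134641774 to 134844843) was at 3.23 and 3.27 CPM in control, 5.16 and 5.77 in 10 µM persister, 4.70 and 5.12 in 320 µM persister, 18.4 and 16.6 in 10 µM adapted and 21.8 and 23.9 in 320 µM adapted cells. COL5A2 (chromosome 2, 189031896 to 189225312, tail to tail with COL3A1) was at 0.310 and 0.255, 0.516 and 0, 0.459 and 0.466, 13.8 and 12.8 and 7.70 and 6.68 CPM in the same order. For both genes the adapted sums at both doses lay above the control and persister sums. COL5A1 rose by 2.43 ± 0.12 log2 (edgeR adjusted p = 1.99e-16) in 10 µM and 2.81 ± 0.12 log2 (edgeR adjusted p = 7.33e-19) in 320 µM adapted cells. COL5A2 rose by 5.51 ± 0.24 log2 (edgeR adjusted p = 3.45e-18) and 4.63 ± 0.27 log2 (edgeR adjusted p = 1.61e-15). The number of COL5A2 UMIs per COL5A1 UMI, over both pools, was 0.0867 in control (95% interval 0.0451 to 0.153), 0.757 in 10 µM adapted (0.665 to 0.863) and 0.313 in 320 µM adapted cells (0.270 to 0.363), so the chains changed unequally. Intervals of chain ratios, here and below, cover counting error only and not the spread between pools. The smaller COL5A1 calls in persister cells, 0.75 log2 at 10 µM and 0.60 log2 at 320 µM, were lost without pool 2 of the persister condition, at 0.66 and 0.55.

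COL2A1, the chain of type II collagen of cartilage (chromosome 12, 47972965 to 48004554), moved apart from the other fibrillar genes. It was at 11.4 and 14.0 CPM in control, 0.258 and 1.20 in 10 µM persister, 6.31 and 6.87 in 320 µM persister, 9.93 and 9.09 in 10 µM adapted and 1.13 and 1.51 in 320 µM adapted cells. The control sums were the highest, and the 10 µM persister and 320 µM adapted sums, which overlap, the lowest. COL2A1 fell by 4.07 ± 0.36 on the log2 scale in 10 µM persister cells (edgeR adjusted p = 6.20e-11) and by 3.25 ± 0.19 in 320 µM adapted cells (edgeR adjusted p = 2.05e-15). Persister and adapted cells thus stood in opposite order at the 2 doses: adapted against persister was 3.65 ± 0.39 log2 (edgeR adjusted p = 3.06e-09) at 10 µM and -2.30 ± 0.25 log2 (edgeR adjusted p = 3.39e-09) at 320 µM. The small decrease in 10 µM adapted cells, -0.42 log2, was not called by DESeq2 (-0.40), without control pool 2 (-0.26) or without 10 µM adapted pool 2 (-0.36).

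COL27A1, a fibrillar collagen of developing cartilage (chromosome 9, 114155560 to 114312511), was at 1.42 and 1.36 CPM in control, 4.64 and 4.81 in 10 µM persister, 0.459 and 0.349 in 320 µM persister, 3.53 and 5.87 in 10 µM adapted and 8.96 and 7.72 in 320 µM adapted cells. It was above control in 3 of the treated conditions and below it in 320 µM persister cells. The change was 1.76 ± 0.34 log2 (edgeR adjusted p = 5.46e-05) in 10 µM persister cells and 2.58 ± 0.21 log2 (edgeR adjusted p = 2.74e-12) in 320 µM adapted cells. In 320 µM persister cells it was -1.75 ± 0.51 log2 (edgeR adjusted p = 0.00467), a call lost without pool 2 (-1.56) and in the listed cells (-1.44).

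Of the fibril-associated genes, COL14A1 and COL9A3 rose most in 10 µM adapted cells. COL14A1, whose product binds fibrils through decorin (chromosome 8, 120059780 to 120372036), was at 3.63 and 3.31 CPM in control, 5.42 and 5.29 in 10 µM persister, 4.36 and 3.73 in 320 µM persister, 42.9 and 40.2 in 10 µM adapted and 7.02 and 5.75 in 320 µM adapted cells. Again the 10 µM adapted sums were far above the rest. Its log2 change was 3.58 ± 0.11 log2 (edgeR adjusted p = 1.06e-21) in 10 µM and 0.88 ± 0.15 log2 (edgeR adjusted p = 5.83e-06) in 320 µM adapted cells. In 10 µM persister cells the change of 0.63 ± 0.24 log2 (edgeR adjusted p = 0.0292) lost its call without control pool 2 (0.55) or either pool of that condition (0.62 and 0.64), and in the listed cells (0.27).

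COL9A2 and COL9A3 encode chains of type IX collagen, the partner of type II fibrils in cartilage. COL9A3 (chromosome 20, 62816244 to 62841159) was at 11.8 and 9.20 CPM in control, 17.5 and 10.1 in 10 µM persister, 2.75 and 3.26 in 320 µM persister, 55.7 and 60.5 in 10 µM adapted and 2.51 and 2.90 in 320 µM adapted cells. COL9A2 (chromosome 1, 40300487 to 40317813) was at 13.7 and 12.1, 23.0 and 19.9, 3.67 and 4.89, 10.7 and 12.1 and 0.438 and 1.05 CPM in the same order. Both were low at 320 µM in persister and adapted cells alike, while at 10 µM COL9A3 was highest in adapted and COL9A2 in persister cells. COL9A3 changed by 2.47 ± 0.11 log2 (edgeR adjusted p = 1.31e-13) in 10 µM adapted cells, where COL9A2 was not called (-0.18 log2, edgeR adjusted p = 0.204). COL9A2 fell by 4.08 ± 0.21 on the log2 scale in 320 µM adapted cells (edgeR adjusted p = 1.49e-16).

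The ratio of COL9A3 to COL9A2 UMIs, over both pools, was 0.810 in control (95% interval 0.717 to 0.915), 5.09 in 10 µM adapted (4.54 to 5.72) and 3.60 in 320 µM adapted cells (2.29 to 5.85). It was 0.640 (0.499 to 0.817) and 0.703 (0.483 to 1.02) in 10 µM and 320 µM persister cells. By pool, the ratio in 320 µM adapted cells was 5.71 and 2.78, on 7 and 18 COL9A2 UMIs. The third chain gene of type IX, COL9A1, had 19 and 5 UMIs in the 10 µM adapted sums and 0 in control and persister sums, and was not tested. The 3′ end of COL9A3 overlaps TCFL5 on the opposite strand. Whether counting used the strand is not given in the sources used here, so it is not known if reads of the 2 genes were told apart. TCFL5 itself was at 4.91 and 6.32 CPM in control, 4.13 and 6.49 in 10 µM persister, 8.71 and 7.10 in 320 µM persister, 8.36 and 9.60 in 10 µM adapted and 15.4 and 15.5 in 320 µM adapted cells. The part of TCFL5 reads in the COL9A3 level was not tested.

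COL12A1, which tethers fibrils in tissue under load (chromosome 6, 75084326 to 75206051), was at 21.2 and 20.8 CPM in control, 6.19 and 7.93 in 10 µM persister, 10.2 and 7.80 in 320 µM persister, 43.2 and 39.4 in 10 µM adapted and 11.2 and 10.7 in 320 µM adapted cells. Sums of 10 µM adapted cells lay above control and the other treated sums below it. The change was 0.98 ± 0.083 log2 (edgeR adjusted p = 1.81e-11) in 10 µM adapted cells and -1.57 ± 0.17 log2 (edgeR adjusted p = 2.78e-09) in 10 µM persister cells, so adapted exceeded persister cells there by 2.54 ± 0.15 log2 (edgeR adjusted p = 8.91e-15).

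COL16A1, a FACIT of skin and muscle (chromosome 1, 31652247 to 31704319), was called against control in 10 µM persister cells and in none of the other 3 treated conditions. It had 5.42 and 4.57 CPM there (21 and 19 UMIs), 0.0442 and 0.127 CPM in control, 0.459 and 0 in 320 µM persister, 0.261 and 0.193 in 10 µM adapted and 0.188 and 0.174 in 320 µM adapted cells. The change against control was 5.70 ± 0.58 log2 (edgeR adjusted p = 9.01e-10), and that of 10 µM adapted against 10 µM persister cells was -4.40 ± 0.53 log2 (edgeR adjusted p = 3.01e-08). An antisense gene overlaps its 3′ end, and whether reads of that gene were counted apart is not given in the sources used here.

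COL8A1, a short-chain collagen that forms hexagonal networks in vessel walls and Descemet's membrane (chromosome 3, 99638475 to 99799226), was at 6.28 and 8.10 CPM in control, 7.22 and 6.01 in 10 µM persister, 1.15 and 1.75 in 320 µM persister, 35.9 and 33.0 in 10 µM adapted and 3.01 and 2.32 in 320 µM adapted cells. As for COL3A1, the 10 µM adapted sums were above all others and the 320 µM sums below control. It rose by 2.25 ± 0.11 log2 (edgeR adjusted p = 5.87e-17) in 10 µM adapted cells and changed by -2.31 ± 0.25 log2 (edgeR adjusted p = 4.67e-09) in 320 µM persister cells. The difference of the adapted-minus-persister change between doses, -1.51 log2, was not called without 320 µM persister pool 2 (-1.19).

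**Figure D3:**
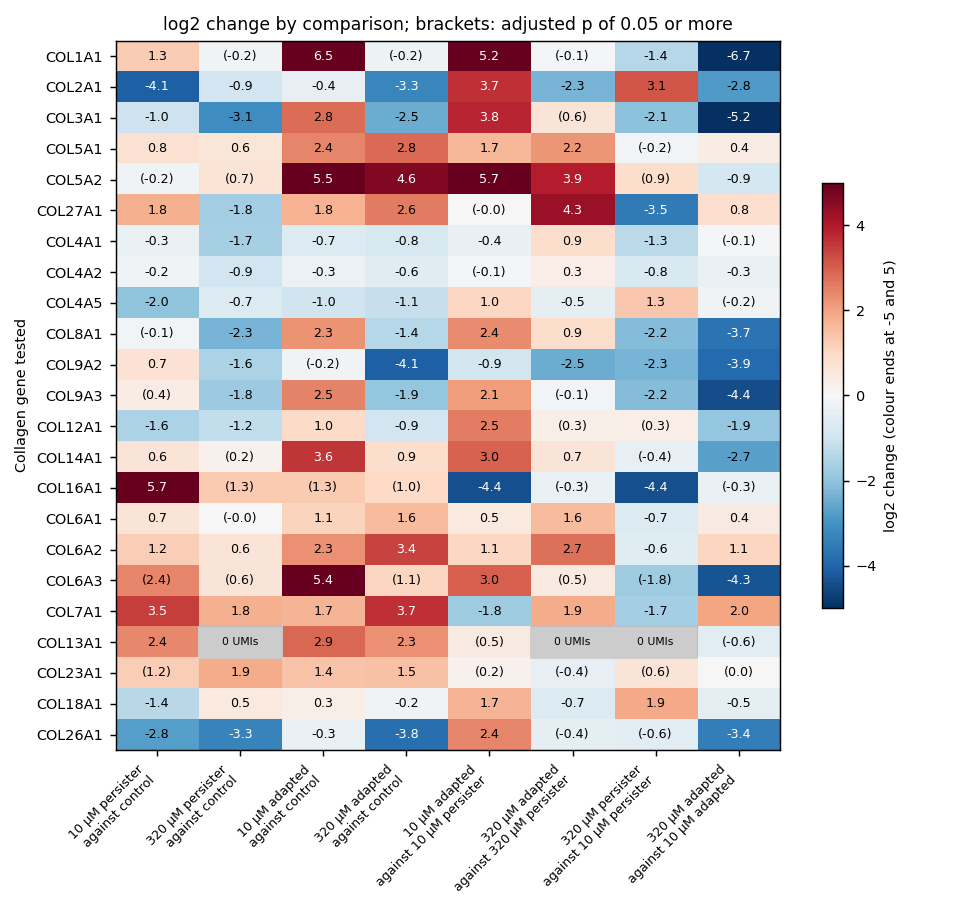
Cells give the fitted log2 change of each of the 23 tested collagen genes in 8 comparisons, red for higher and blue for lower, with brackets where the edgeR adjusted p was 0.05 or more. The 10 µM adapted column is mostly red outside type IV, and grey marks COL13A1 against 320 µM persister sums, which held 0 UMIs.

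Type IV collagen genes lie in head-to-head pairs that share the region between their starts, and the members of 2 such pairs are shown here. In one pair both genes were called lower than control in each treated condition, though by unequal amounts, and in the other their levels were very unequal. Between the RefSeq starts of COL4A1 (minus strand) and COL4A2 (plus strand) lie 126 bases of chromosome 13, with 80.2% GC and 20 CpG, most of which GENCODE 29 places in first exons. A 30-base stretch around a CCAAT match in them, chr13:110307167-110307196 on the plus strand, is given first. It is followed by 126 bases before COL4A5 (chrX:108439712-108439837, plus strand) and 87 bases before COL4A6 (chrX:108439498-108439584, minus strand), whose starts are 379 bases apart. Sequences are from RefSeq on GRCh38.p14, 5′ to 3′, with CCAAT matches in capitals.
COL4A1 and COL4A2: gggccgagctccCCAATttgttggcgctgc
COL4A5: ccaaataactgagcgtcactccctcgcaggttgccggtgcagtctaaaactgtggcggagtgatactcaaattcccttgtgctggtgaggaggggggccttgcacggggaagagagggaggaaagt
COL4A6: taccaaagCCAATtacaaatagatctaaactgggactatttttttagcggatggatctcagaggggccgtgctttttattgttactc
Searched on both strands in 126 bases before each start, CCAAT (a motif bound by the NF-Y factor) was found 1 time in the COL4A1 and COL4A2 region, 1 time before COL4A6 and 0 times before COL4A5. GGGCGG (a GC box) was found 1 time between COL4A1 and COL4A2 and 0 times before the others, and TATAAA in none of the 3. Of 35116 windows of the same length in the RefSeq table, 21.1% held CCAAT, 34.6% GGGCGG and 5.87% TATAAA. A promoter row was matched for 32 of the 44 members.

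COL4A1 and COL4A2, the chains of the ubiquitous basement membrane trimer, were the most abundant collagen transcripts of control cells. COL4A1 (chromosome 13, 110148963 to 110307233) was at 84.0 and 76.6 CPM in control, 57.0 and 70.6 in 10 µM persister, 27.1 and 23.4 in 320 µM persister, 52.0 and 47.4 in 10 µM adapted and 45.9 and 45.8 in 320 µM adapted cells. COL4A2 (chromosome 13, 110305812 to 110513209) was at 112 and 114, 93.4 and 105, 58.6 and 59.4, 95.9 and 90.0 and 76.0 and 72.9 CPM in the same order. For both genes each treated sum was below both control sums, with the 320 µM persister sums lowest. With library totals alone the 10 µM persister sums overlapped control, at 62.6 and 78.5 CPM against 85.4 and 77.8 for COL4A1 and at 102 and 117 against 114 and 116 for COL4A2.

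COL4A1 fell by 1.67 ± 0.087 and COL4A2 by 0.94 ± 0.061 on the log2 scale in 320 µM persister cells (edgeR adjusted p = 1.15e-14 and 1.20e-13). In 320 µM adapted cells they fell by 0.81 ± 0.067 and 0.60 ± 0.055 (edgeR adjusted p = 1.97e-10 and 7.58e-11). COL4A2 UMIs per COL4A1 UMI, over both pools, went from 1.41 in control (95% interval 1.35 to 1.47) to 2.34 in 320 µM persister (2.09 to 2.62), 1.87 in 10 µM adapted (1.76 to 1.99) and 1.62 in 320 µM adapted cells (1.52 to 1.73), so COL4A1 was lowered more. The small changes in 10 µM persister cells, -0.33 log2 and -0.18 log2, were not called without pool 1 of that condition (-0.18 and -0.093), COL4A1 was not called in the listed cells (-0.39), and COL4A2 was also not called with library totals alone (-0.064) or by DESeq2 (-0.15). The COL4A2 call was further lost with relative log expression scaling (-0.14), with the compared conditions alone (-0.16), without control pool 1 (-0.19) and without control pool 2 (-0.18). COL4A2 in 10 µM adapted cells, -0.28 log2, was -0.11 and not called in the listed cells.

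COL4A5, a chain of kidney and smooth muscle basement membranes (chromosome X, 108439844 to 108697545), was at 18.8 and 18.4 CPM in control, 3.87 and 5.29 in 10 µM persister, 12.4 and 10.9 in 320 µM persister, 9.60 and 9.22 in 10 µM adapted and 8.58 and 8.30 in 320 µM adapted cells. Here the 10 µM persister sums were the lowest, unlike COL4A1 and COL4A2. The change was -2.01 ± 0.19 log2 (edgeR adjusted p = 1.41e-10) in 10 µM persister and -1.14 ± 0.10 log2 (edgeR adjusted p = 6.14e-11) in 320 µM adapted cells. Its neighbor COL4A6 had 12 and 14 UMIs in control against 425 and 433 for COL4A5, a COL4A5 to COL4A6 ratio of 33.0 over both pools (95% interval 22.4 to 50.8). COL4A3 and COL4A4, the chains that join COL4A5 in the glomerulus, had at most 2 and 9 UMIs in a sum, so no partner of COL4A5 passed the filter.

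Type VI collagen reached its highest level in 320 µM adapted cells, where type IV was still the larger class (129 against 93.1 CPM for the class of type VI and XXVIII). COL6A1 (chromosome 21, 45981737 to 46005050) was at 14.5 and 14.1 CPM in control, 21.7 and 23.5 in 10 µM persister, 12.6 and 15.5 in 320 µM persister, 29.5 and 33.2 in 10 µM adapted and 41.3 and 43.7 in 320 µM adapted cells. COL6A2, next to it on the same strand (chromosome 21, 46098097 to 46132849), was at 5.31 and 4.37, 12.4 and 10.6, 6.65 and 8.38, 23.8 and 23.8 and 50.4 and 50.3 CPM in the same order. Adapted sums exceeded control and persister sums for both genes, and the 320 µM adapted sums were highest.

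COL6A1 rose by 1.13 ± 0.087 log2 (edgeR adjusted p = 2.31e-12) in 10 µM adapted and 1.57 ± 0.084 log2 (edgeR adjusted p = 2.17e-16) in 320 µM adapted cells. COL6A2 rose by 2.30 ± 0.11 log2 (edgeR adjusted p = 3.24e-17) and 3.38 ± 0.099 log2 (edgeR adjusted p = 1.09e-22). COL6A2 UMIs per COL6A1 UMI went from 0.337 in control (95% interval 0.288 to 0.393) to 1.18 in 320 µM adapted cells (1.10 to 1.27). In 320 µM persister cells COL6A1 was not called (-0.03 log2), and the COL6A2 change of 0.64 ± 0.16 log2 (edgeR adjusted p = 0.00107) was lost without pool 2 (0.47) and was -0.054 in the listed cells (edgeR adjusted p = 0.874).

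COL6A3, the long chain that completes the usual type VI trimer (chromosome 2, 237324003 to 237414375), did not follow its partners at 320 µM. It was at 0.0884 and 0.127 CPM in control, 0 and 1.20 in 10 µM persister, 0 and 0.349 in 320 µM persister, 4.18 and 5.74 in 10 µM adapted and 0.313 and 0.174 in 320 µM adapted cells. It rose in 10 µM adapted cells by 5.40 ± 0.46 log2 (edgeR adjusted p = 1.50e-10). From 10 µM to 320 µM adapted cells it changed by -4.31 ± 0.43 log2 (edgeR adjusted p = 4.35e-09), where COL6A1 and COL6A2 were higher by 0.44 ± 0.079 log2 (edgeR adjusted p = 1.89e-05) and 1.08 ± 0.082 log2 (edgeR adjusted p = 1.82e-12). COL6A5 and COL6A6, which can replace COL6A3, had at most 1 and 2 UMIs in a sum.

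COL7A1, the anchoring fibril collagen that ties epithelium to stroma (chromosome 3, 48564073 to 48595267), was low throughout, at 0.265 and 0.127 CPM in control, 3.09 and 1.44 in 10 µM persister, 0.803 and 0.582 in 320 µM persister, 0.784 and 0.516 in 10 µM adapted and 2.19 and 2.90 in 320 µM adapted cells. The 10 µM persister and 320 µM adapted sums were the highest. It rose by 3.46 ± 0.60 log2 (edgeR adjusted p = 1.38e-05) in 10 µM persister cells and 3.65 ± 0.41 log2 (edgeR adjusted p = 4.46e-09) in 320 µM adapted cells. Adapted cells were below persister cells at 10 µM, with a change of -1.77 ± 0.52 log2 (edgeR adjusted p = 0.00427), and above them at 320 µM, by 1.87 ± 0.42 log2 (edgeR adjusted p = 2.89e-04).

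Among transmembrane collagens, COL13A1 and COL23A1 were tested. COL13A1, a surface collagen of neuromuscular junctions (chromosome 10, 69801867 to 69964275), had 0 and 0 UMIs in the 320 µM persister sums, 0.310 and 0.382 CPM in control, 1.55 and 2.16 in 10 µM persister, 2.09 and 3.03 in 10 µM adapted and 1.38 and 2.03 in 320 µM adapted cells. With a floor of 3 UMIs over both 320 µM persister sums, it was at least 2.00-fold higher in control, 10.7-fold higher in 10 µM persister and 9.84-fold higher in 320 µM adapted cells. It rose by 2.85 ± 0.37 log2 (edgeR adjusted p = 8.64e-08) in 10 µM adapted cells. COL23A1 (chromosome 5, 178237618 to 178590555) ranged from 0.442 to 2.32 CPM, was called higher than control in 3 treated conditions (1.85 log2, 1.43 log2 and 1.46 log2) and was not called in 10 µM persister cells (1.22 log2).

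COL18A1, a multiplexin of basement membranes whose end fragment is endostatin (chromosome 21, 45405137 to 45513720), was at 38.0 and 39.8 CPM in control, 13.7 and 15.6 in 10 µM persister, 54.5 and 54.3 in 320 µM persister, 47.7 and 46.6 in 10 µM adapted and 30.9 and 37.4 in 320 µM adapted cells. It was lowest in 10 µM persister and highest in 320 µM persister cells, the reverse of COL4A1 between the persister doses. The change was -1.41 ± 0.12 log2 (edgeR adjusted p = 4.78e-11) in 10 µM persister and 0.48 ± 0.078 log2 (edgeR adjusted p = 4.92e-06) in 320 µM persister cells. The difference between the persister doses was 1.89 ± 0.12 log2 (edgeR adjusted p = 1.15e-13). In 320 µM adapted cells the change of -0.19 log2 was not called by DESeq2 (-0.18), in the listed cells (-0.028), without control pool 2 (-0.16) or without 320 µM adapted pool 1 (-0.059). Its 3′ end overlaps SLC19A1 on the opposite strand, and whether reads of SLC19A1 were counted apart is not given in the sources used here. SLC19A1 was at 3.61 to 14.0 CPM in the 10 sums.

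COL26A1, a collagen of reproductive tissue in development (chromosome 7, 101362820 to 101559024), was at 18.8 and 18.5 CPM in control, 2.32 and 3.12 in 10 µM persister, 1.72 and 1.98 in 320 µM persister, 16.1 and 13.7 in 10 µM adapted and 1.57 and 1.16 in 320 µM adapted cells. Both persister conditions and the 320 µM adapted cells were far below control, with no overlap. It fell by 2.76 ± 0.22, 3.33 ± 0.19 and 3.77 ± 0.16 on the log2 scale in those 3 conditions (edgeR adjusted p = 7.67e-12, 2.65e-15 and 1.04e-18). In 10 µM adapted cells the change of -0.33 ± 0.10 log2 (edgeR adjusted p = 0.00582) was lost with DESeq2 (-0.30) and without pool 2 (-0.21), and was 0.067 in the listed cells (edgeR adjusted p = 0.736).

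The remaining 21 members did not pass the filter. COL22A1 had 0 UMIs in each sum. Highest among them were COL4A4 at a mean of 0.894 CPM in 10 µM persister cells and COL9A1 at 0.781 CPM in 10 µM adapted cells. The fibrillar genes COL5A3, COL11A1, COL11A2 and COL24A1 stayed at 0.618 CPM or less as condition means.

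The share of cells with a UMI was compared after each cell was thinned to 3000 UMIs, which left out 207 shallower cells. The loss was uneven: 27 of 300 and 25 of 263 cells in 10 µM persister pools 1 and 2, against 11 of 2435 and 18 of 2155 in control. Percentages follow for pool 1 and pool 2, and their 95% exact binomial intervals cover counting error only. A UMI of any collagen gene was seen in 63.3% ± 0.270 of control cells (SD, n = 2 pools). The share was 58.0% ± 4.78 in 10 µM persister, 44.5% ± 0.358 in 320 µM persister, 76.2% ± 0.311 in 10 µM adapted and 54.2% ± 0.163 in 320 µM adapted cells. Unthinned, these were 90.4%, 87.3%, 80.8%, 95.4% and 84.6%, in the same order of conditions. Cells with 5 or more collagen genes were 6.54% ± 0.200 of 10 µM adapted cells and 0.253% ± 0.226 of control cells.

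COL1A1 had a UMI in 15.4% and 16.5% of thinned 10 µM adapted cells (intervals 13.7% to 17.1% and 14.7% to 18.4%), in 23.4% and 25.6% of them unthinned, and in 0.247% and 0.515% of thinned control cells. The lowest share in each pool, taken as a bound on free RNA, was 0.138% (upper limit 0.764%) and 0% (upper limit 0.628%) in 320 µM persister cells, whose median depth of 11155 and 13035 UMIs exceeded the 8131 and 9183 of 10 µM adapted cells. COL3A1 had a UMI in 18.8% and 19.5% of 10 µM adapted and 2.39% and 2.48% of control cells, and COL9A3 in 16.5% and 15.8% and 2.89% and 2.85%. For these 3 genes the 10 µM adapted share was the highest of its pool. It lies above the lowest share by definition, so the part of free RNA was not tested.

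COL6A2 had a UMI in 12.9% and 12.4% of 320 µM adapted cells and 1.82% and 0.936% of control cells. For type IV, COL4A2 had a UMI in 25.0% and 26.3% of control and 13.6% and 14.2% of 320 µM persister cells, and COL4A1 in 19.6% and 18.5% and 6.74% and 5.97%. COL18A1 went from 4.40% and 4.62% of 10 µM persister to 16.4% and 15.9% of 320 µM persister cells. For these 4 genes the condition means of the shares stood in the same order as those of the CPM.

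**Figure D4:**
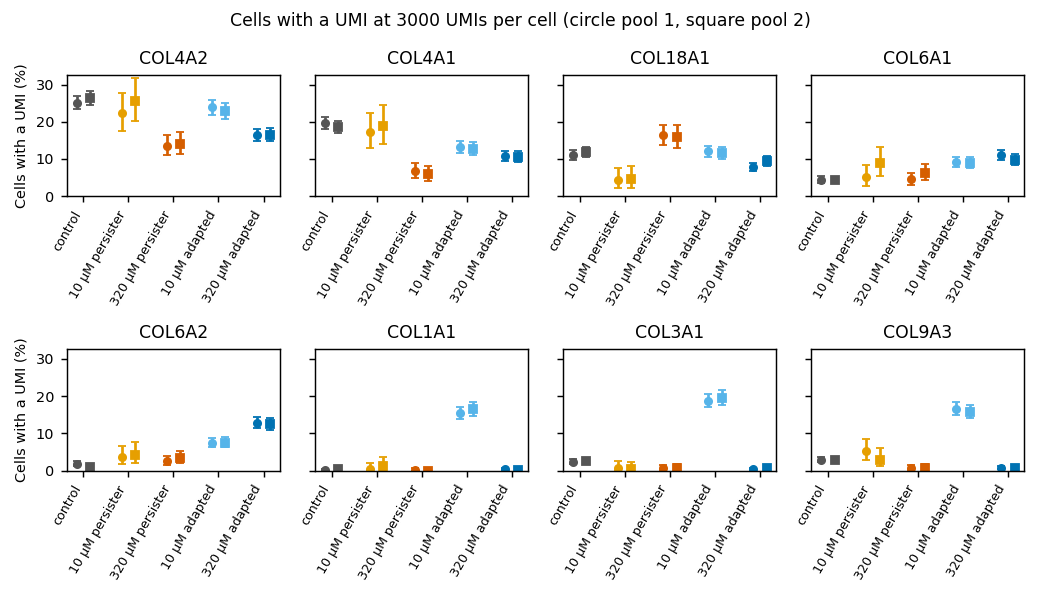
Points give the percent of cells with a UMI of 8 collagen genes at 3000 UMIs per cell, with circles for pool 1, squares for pool 2 and bars for 95% exact binomial intervals. COL1A1, COL3A1 and COL9A3 are at 5.13% or less outside 10 µM adapted cells, where they are at 15.4% to 19.5%.

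Within 10 µM adapted cells the UMIs of fibrillar genes were uneven. Cells with 5 or more COL1A1 UMIs were 5.02% and 6.88% of the cells of pools 1 and 2, and they held 57.3% and 61.6% of its UMIs. The same cells for COL3A1 were 3.22% and 3.98%, with 32.8% and 35.8% of UMIs. COL9A3 was spread more thinly: cells with 5 or more UMIs were 0.109% and 0.316%, and held 1.17% and 2.99% of its UMIs. No SD over replicates other than the 2 pools exists for these shares, and depth was not equalized in them.

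Which genes went with COL1A1 was described in the thinned 10 µM adapted cells, of which 276 and 258 had a COL1A1 UMI and 1520 and 1305 had none; this split was chosen after its values were seen, and cells are not replicates. COL3A1 had a UMI in 51.1% and 50% of cells with COL1A1 and 12.9% and 13.5% of cells without. COL8A1 stood at 21.4% and 22.1% against 6.97% and 7.66%, and COL12A1 at 25.0% and 23.6% against 10.1% and 8.43%. COL5A2 was at 10.5% and 10.9% against 1.84% and 1.84%. These genes were more often seen with COL1A1 in both pools.

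COL4A1 was also more frequent beside COL1A1, at 26.4% and 26.0% against 10.9% and 10.2%. COL9A3 was at 15.6% and 19.0% against 16.6% and 15.2%, in opposite order in the pools, and COL9A2 at 0% and 0% against 2.83% and 4.14%. Of genes outside the family, the contractile marker ACTA2 was at 63.4% and 59.3% against 25.7% and 26.3%, and PAX8, a transcription factor of the serous lineage, at 6.88% and 12.02% against 20.7% and 19.6%. The keratin KRT18 was at 92.8% and 93.4% against 87.2% and 88.1%, so most cells with COL1A1 also had a UMI of this epithelial keratin. Other lineage markers went the opposite way: EPCAM was at 1.09% and 1.16% against 2.63% and 3.3%, and SOX17 at 1.09% and 1.55% against 4.28% and 4.90%. The mesenchymal marker VIM was at 97.5% and 97.7% against 92.4% and 93.6%. The part of free RNA in the KRT18 shares was not tested.

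**Figure D5:**
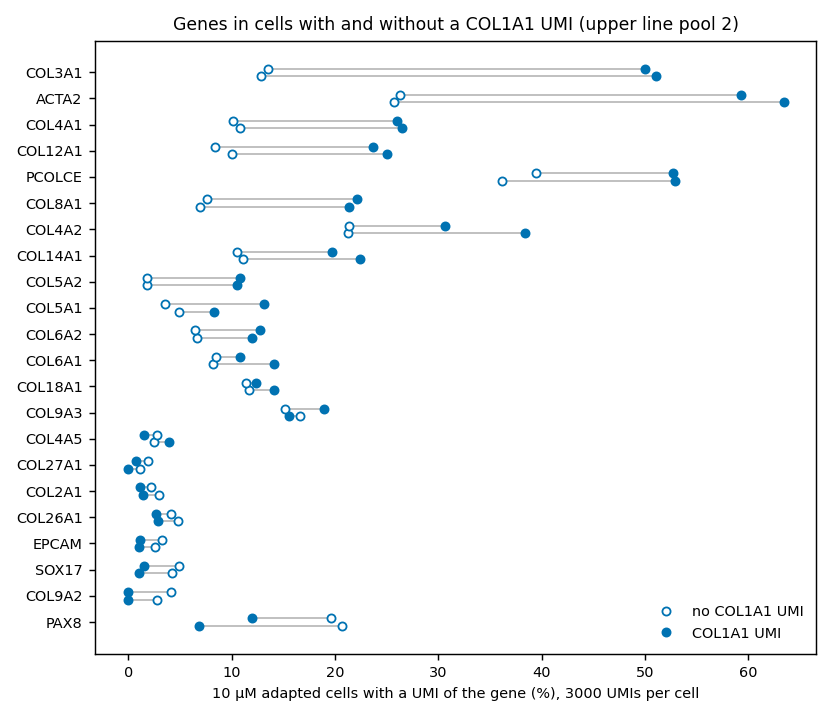
For each gene, open circles give the percent of 10 µM adapted cells without a COL1A1 UMI that had a UMI of the gene, and filled circles the percent among cells with COL1A1, at 3000 UMIs per cell, with 1 line per pool. COL3A1 is at 50% to 51.1% in cells with COL1A1 and at 12.9% to 13.5% in the others, while PAX8 is lower beside COL1A1.

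Other genes that make, trim, bind and degrade collagen were taken from 4 lists with 59 genes in the table, of which 51 were tested. Of 20 genes for modification and folding, 10 rose and 2 fell in 10 µM persister cells, 8 and 5 in 320 µM persister, 15 and 2 in 10 µM adapted, and 12 and 5 in 320 µM adapted cells. In the same order of conditions, 50%, 40%, 75% and 60% rose, against 27.3%, 26.3%, 33.7% and 37.6% of all genes tested, and 10%, 25%, 10% and 25% fell, against 29.3%, 28.3%, 33.4% and 36.9%. The medians of their log2 changes were 0.52, 0.080, 0.76 and 0.52. SERPINH1, the collagen chaperone HSP47, was at 129 and 131 CPM in control, 234 and 219 in 10 µM persister, 43.5 and 43.2 in 320 µM persister, 162 and 159 in 10 µM adapted and 34.6 and 34.3 in 320 µM adapted cells. It thus rose at 10 µM and fell at 320 µM in persister and adapted cells alike, by 0.80 ± 0.053 log2 (edgeR adjusted p = 6.34e-14), -1.58 ± 0.059 log2 (edgeR adjusted p = 1.77e-19), 0.30 ± 0.049 log2 (edgeR adjusted p = 2.95e-06) and -1.92 ± 0.055 log2 (edgeR adjusted p = 8.48e-23).

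CRTAP, a part of the prolyl 3-hydroxylation complex, was at 50.5 and 54.9 CPM in control and 256 and 271 in 320 µM adapted cells, a rise of 2.32 ± 0.062 log2 (edgeR adjusted p = 5.49e-22). FKBP10, a prolyl isomerase for procollagen, rose by 1.51 ± 0.061 log2 (edgeR adjusted p = 9.17e-19) in 10 µM adapted cells, from 45.2 and 44.2 to 130 and 124 CPM. P4HA2, a catalytic chain of prolyl 4-hydroxylase, rose in all 4 treated conditions, most in 10 µM persister cells, at 83.6 and 71.1 CPM against 23.7 and 22.3 in control (1.75 ± 0.087 log2 (edgeR adjusted p = 8.48e-17)).

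Of 13 tested genes for propeptide cleavage and crosslinking, 4 rose and 4 fell in 10 µM persister, 2 and 6 in 320 µM persister, 8 and 3 in 10 µM adapted and 6 and 3 in 320 µM adapted cells. That is 30.8%, 15.4%, 61.5% and 46.2% that rose, against 27.3%, 26.3%, 33.7% and 37.6% of all genes, and 30.8%, 46.2%, 23.1% and 23.1% that fell, against 29.3%, 28.3%, 33.4% and 36.9%, so the shares in 10 µM persister cells were near those of all genes. The medians were 0.19, -0.42, 0.77 and 0.15 on the log2 scale. PCOLCE, the enhancer of procollagen C-proteinase, was also far higher in 10 µM adapted than in the other cells. It was at 5.75 and 5.43 CPM in control, 5.67 and 5.29 in 10 µM persister, 2.64 and 4.66 in 320 µM persister, 213 and 222 in 10 µM adapted and 13.4 and 14.3 in 320 µM adapted cells, a rise of 5.28 ± 0.085 log2 (edgeR adjusted p = 3.90e-28) at 10 µM adapted. The lysyl oxidase family was mostly higher in 10 µM adapted cells: LOXL3 rose by 3.58 ± 0.11 log2 (edgeR adjusted p = 1.96e-21) there, from 2.83 and 2.63 to 32.4 and 32.9 CPM. LOX, LOXL2 and LOXL4, outside the naming rule, were also above control there in both pools. LOXL2 was at 3.32 and 2.59 CPM in control, 12.2 and 8.25 in 10 µM adapted and 38.8 and 43.9 in 320 µM adapted cells. LOXL1 fell from 116 and 122 CPM in control to 58.8 and 60.3 in 10 µM and 23.7 and 22.2 in 320 µM adapted cells, the latter a change of -2.37 ± 0.069 log2 (edgeR adjusted p = 8.97e-23). PXDN, which crosslinks type IV collagen, fell in both adapted conditions, with changes of -1.31 ± 0.072 log2 (edgeR adjusted p = 8.68e-16) and -1.57 ± 0.073 log2 (edgeR adjusted p = 7.20e-18).

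Of 7 tested receptors, 3 rose and 1 fell in 10 µM persister, 1 and 1 in 320 µM persister, 6 and 1 in 10 µM adapted and 4 and 2 in 320 µM adapted cells. With so few genes, 42.9%, 14.3%, 85.7% and 57.1% rose, against 27.3%, 26.3%, 33.7% and 37.6% of all genes, and 14.3%, 14.3%, 14.3% and 28.6% fell, against 29.3%, 28.3%, 33.4% and 36.9%. The medians were 1.11, -0.10, 0.95 and 0.70. MRC2, an uptake receptor for collagen, was at 2.74 and 3.01 CPM in control, 40.9 and 43.6 in 10 µM adapted and 59.5 and 61.8 in 320 µM adapted cells, and rose by 3.87 ± 0.11 log2 (edgeR adjusted p = 3.01e-22) and 4.39 ± 0.11 log2 (edgeR adjusted p = 1.73e-24). ITGA11, an integrin chain for fibrillar collagen, was at 0.398 and 0.424 CPM in control, 7.05 and 6.90 in 10 µM adapted and 14.3 and 11.2 in 320 µM adapted cells, and rose by 4.05 ± 0.28 log2 (edgeR adjusted p = 6.23e-13) and 4.92 ± 0.25 log2 (edgeR adjusted p = 2.46e-16). Its partner ITGB1 rose by 0.46 ± 0.045 log2 (edgeR adjusted p = 4.39e-10) and 0.70 ± 0.045 log2 (edgeR adjusted p = 2.41e-14). DDR1, a receptor kinase activated by collagen, rose in 10 µM adapted cells (0.95 ± 0.08 log2 (edgeR adjusted p = 1.48e-11)) and fell in 320 µM adapted cells (-0.85 ± 0.096 log2 (edgeR adjusted p = 4.18e-09)).

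The list of collagen breakdown holds proteases and also the inhibitors TIMP1, TIMP2 and TIMP3, so its counts do not describe proteases alone. Of its 11 tested genes, 6 rose and 0 fell in 10 µM persister, 4 and 1 in 320 µM persister, 6 and 1 in 10 µM adapted and 7 and 2 in 320 µM adapted cells. Thus 54.5%, 36.4%, 54.5% and 63.6% rose, against 27.3%, 26.3%, 33.7% and 37.6% of all genes, and 0%, 9.09%, 9.09% and 18.2% fell, against 29.3%, 28.3%, 33.4% and 36.9%. The medians were 0.70, 0.58, 0.43 and 0.49. CTSB, a lysosomal protease, rose most in 10 µM persister cells, from 53.5 and 56.03 to 263 and 303 CPM (2.37 ± 0.068 log2 (edgeR adjusted p = 3.83e-20)). The inhibitors TIMP2 and TIMP3 moved in opposite directions in 10 µM adapted cells, by 1.55 ± 0.11 log2 (edgeR adjusted p = 4.62e-13) and -0.93 ± 0.089 log2 (edgeR adjusted p = 7.47e-09). TIMP1, the most abundant inhibitor of the list, was outside the naming rule and was added after its values were seen. It was at 132 and 137 CPM in control, 531 and 416 in 10 µM persister, 124 and 117 in 320 µM persister, 580 and 618 in 10 µM adapted and 223 and 226 in 320 µM adapted cells. It rose by 1.81 ± 0.10 log2 (edgeR adjusted p = 2.69e-06), 2.16 ± 0.10 log2 (edgeR adjusted p = 5.49e-07) and 0.74 ± 0.10 log2 (edgeR adjusted p = 2.93e-04) in the conditions other than 320 µM persister. CTSL, another lysosomal protease, rose by 0.58 ± 0.076 log2 (edgeR adjusted p = 1.65e-07) in 320 µM persister and 0.55 ± 0.07 log2 (edgeR adjusted p = 3.89e-08) in 320 µM adapted cells.

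Markers of other cell types were read beside these results. The 8 smooth muscle and pericyte markers summed to 1294 and 1234 CPM in 10 µM adapted cells, against 236 and 249 in control and 91.3 to 446 elsewhere, mostly TAGLN and ACTA2. The 12 fibroblast markers other than collagens summed to 2174 and 2202 CPM there, against 2355 and 2345 in control, a sum carried by S100A4. Of these 12, 9 were tested, of which 6 rose in 10 µM adapted cells (DCN, LUM, PDGFRA, PDGFRB, THY1 and FBLN1), 2 fell (MFAP5 and S100A4) and SPARC was not called. DCN, LUM, PDGFRA and PDGFRB were at 4.11 and 2.00, 1.63 and 1.48, 1.96 and 2.77 and 5.35 and 5.54 CPM in 10 µM adapted and at most 0.177 CPM in control cells, while DPT and POSTN had 1 UMI each over both 10 µM adapted sums. The part of these cells' markers in the collagen levels was not tested.

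The 10 leukocyte markers summed to 0.929 and 1.02 CPM in control, 22.7 and 21.1 in 10 µM persister, 4.13 and 3.03 in 320 µM persister, 7.05 and 7.86 in 10 µM adapted and 17.7 and 19.0 in 320 µM adapted cells, mostly CD68, with CD14 in 10 µM persister cells. CD3E, CD3D and MS4A1 were at 0 in the 10 sums, and PTPRC reached at most 0.481 CPM. The 7 mesothelial markers summed to 45.5 and 44.7 CPM in control, mostly UPK3B, and to 132 and 106 in 10 µM persister cells, mostly HP. Their sums were 14.5 and 13.5 CPM in 320 µM persister, 15.7 and 13.9 in 10 µM adapted and 1.82 and 1.63 in 320 µM adapted cells, with ITLN1 at 0. In 10 µM adapted cells 2 of them rose against control and 2 fell. The 7 endothelial markers summed to 5.09 and 6.24 CPM in control and 23.4 and 22.6 in 10 µM adapted cells, mostly EMCN in the latter. Of the line's own lineage markers, 13 summed to 4648 and 4807 CPM in control, 2637 and 2578 in 10 µM adapted and 1378 and 1249 in 320 µM adapted cells. PAX8 was at 173 and 159 CPM in control and 90.3 and 92.4 in 10 µM adapted cells and SOX17 at 289 and 360 and 14.6 and 18.2. Of the 13, 8 fell and 4 rose in 10 µM adapted cells, and CDH1 was low already in control (0.398 and 0.424 CPM). The 4 were KRT7, from 2.92 and 2.76 to 40.5 and 42.2 CPM, EPCAM, from 4.25 and 5.01 to 11.0 and 11.9, CLDN4, from 17.9 and 18.9 to 29.9 and 35.5, and KRT19, from 9.73 and 10.7 to 14.9 and 18.1.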

How the data were processed

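Single cells of 2 pools, each holding the 5 conditions marked by hashtag antibodies, were profiled as 8 gene expression and 2 hashtag libraries with 10x 3′ chemistry, per the labels' protocols. Cell Ranger 3.1, Seurat and GRCh38 (hg38) appear, without a role, per the submitters' processing notes. Not stated there or in the labels are settings, strand use, demultiplexing and doublet removal. The values deposited by the authors are raw UMI counts, with no normalization, of 19893 genes in 13800 cells, and the condition and pool of a cell were read from its deposited name. Hashtag files were not used, and no doublet caller was run.

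Counts were summed per condition and pool (3532281 to 23189583 UMIs), scaled by trimmed mean of M-values (factors 0.869 to 1.11), filtered with filterByExpr and tested with edgeR 4.0.16 (R 4.3.3) by robust quasi-likelihood on all 10 sums, with 1 mean per condition, 5 residual degrees of freedom and Benjamini-Hochberg adjustment over 13330 genes. The biological coefficient of variation was 4.39%. Standard errors are the log2 change divided by the square root of F, an approximation. Sums of the same pool deviated together (the pool 1 minus pool 2 differences of 2 conditions correlated at 0.33 to 0.607 over 2730 genes), and the labels say that each pool was made from all conditions. The fit and the thinning were tested on simulated data.

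The members, classes, pathway and marker lists were chosen with earlier results of these data known. Full values are given for members with at least 5 CPM in some condition, and, per pathway list, for up to 4 genes of at least 10 CPM with the lowest p against control. Alternatives were other scalings, no filter, DESeq2 1.42.0, the pool as a block, the compared conditions alone, the 7762 cells of a further deposited list (tagged g1 in its name, with no reason stated, and with UMI totals that differ from the count table for 7725 cells, at 0.951 to 1.00 times the summed total), leaving out each sum, and other thinning depths. That list holds 1031 and 938 of the 2435 and 2155 control cells, and 226 and 200 of the 300 and 263 cells of 10 µM persister pools 1 and 2.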

Additional observations from a re-analysis of the deposited data

Results flagged for a closer look

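For 5 of the 23 tested collagen genes (21.7%, against 10.2% of all 13330 genes tested under the same rule) the adapted-minus-persister change was called in opposite directions at the 2 doses, and the difference between the doses was itself called by edgeR (Benjamini-Hochberg adjusted p given after each). COL2A1 was higher in adapted cells by 3.65 on the log2 scale at 10 µM and changed by -2.30 at 320 µM, a difference of -5.96 (adjusted p = 4.84e-12). COL18A1 changed by 1.68 and -0.67, a difference of -2.35 (adjusted p = 4.72e-14), and COL4A5 by 1.03 and -0.47, a difference of -1.50 (adjusted p = 1.11e-05). COL7A1 went the other way, with -1.77 at 10 µM and 1.87 at 320 µM, a difference of 3.64 (adjusted p = 5.09e-05). COL4A1 did so with smaller values, -0.37 and 0.86, a difference of 1.23 (adjusted p = 1.60e-08).

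The persister sums decide part of these orders: COL2A1 and COL18A1 were low in 10 µM persister cells, and COL4A1 in 320 µM persister cells. The 10 µM call of COL4A1 was lost in the listed cells (-0.024) and without 10 µM persister pool 2 (-0.20), and the 320 µM call of COL4A5 in the listed cells (-0.27) and without 320 µM persister pool 1 (-0.38). The values of COL7A1, a gene of low counts, were not recomputed singly under the alternatives.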

How the results depend on the processing

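Single genes were recomputed under the alternatives only for the 18 members with a mean of at least 5 CPM in some condition. The tested genes COL6A3, COL7A1, COL13A1, COL16A1 and COL23A1 lay below that and were not recomputed singly. Of the 1851 values recomputed, 1787 kept their side of the threshold, and also their direction where they were called. Another 49 lost a call, 12 gained one and 3 changed direction with a call before or after. Changes of direction among values called in neither setting were not counted. All 3 reversals so counted arose in the cells of the further deposited list: COL1A1 in 10 µM persister cells (-0.24), COL6A2 in 320 µM persister cells (-0.054) and COL26A1 in 10 µM adapted cells (0.067), each against control. The cause was not tested.

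The number of collagen genes called stayed within 1.5 times that reported under each alternative. With the pool as a replicate block, the counts of the 9 comparisons were 18, 17, 21, 20, 19, 15, 16, 18 and 19, as without it, and the block changed none of 162 calls of single genes. Leaving out 1 sum gave 15 to 18 genes for 10 µM persister, 13 to 17 for 320 µM persister, 19 to 22 for 10 µM adapted and 20 for 320 µM adapted cells against control. Library totals alone, in place of trimmed means, moved the median of all genes in 320 µM adapted cells against control from 0.0091 to -0.22 and in 10 µM persister cells from -0.026 to 0.092, and the share of higher among called genes in the former from 50.5% to 37.4%. That share went from 51.8% to 38.9% for adapted against persister at 10 µM, from 51.2% to 33.6% at 320 µM and from 50.8% to 37.5% for 320 µM against 10 µM adapted cells.

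The share of cells with any collagen UMI follows depth. For control, 10 µM persister, 320 µM persister, 10 µM adapted and 320 µM adapted cells it was 90.4%, 87.3%, 80.8%, 95.4% and 84.6% without thinning, and 79.5%, 70.5%, 59.8%, 85.7% and 69.1% at 5000 UMIs. Among listed cells it was 61.1%, 54.2% ± 4.99, 39.7%, 76.6% and 54.2% ± 1.52 (SD, n = 2 pools). The pools of 10 µM persister and 320 µM adapted cells overlapped there, without thinning and at 5000 UMIs, so they could not be ordered in those settings. Without thinning, 10 µM persister pool 2 (91.3%) also stood above control pool 1 (89.2%). The means of the other conditions kept their order in each setting. For CPM, the total of the sum limits the 10 µM persister condition most, where 1 UMI in pool 1 is worth most. Its cells were few but the deepest of each pool, at medians of 12100 and 15213 UMIs. Genes under 3 UMIs in a sum cannot be told from 0.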
